A study of Mus musculus with 9 samples.

Results

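Long noncoding RNAs (lncRNAs) are transcripts without a known protein product, and neurons carry several of them at high levels. The 8 neuronal lncRNAs described here were Meg3, Rian, Mirg, Miat, Malat1, Neat1, Snhg11 and Gas5. They were chosen by gene symbol from the 23997 symbols listed for each library. All 8 were above the level required for testing and were among the 13043 genes tested.

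RNA was measured in retinal ganglion cells (RGCs), the neurons whose axons form the optic nerve, from wild type C57BL/6J mice. Control eyes received saline and the other eyes received microbeads in the anterior chamber, which raise intraocular pressure (IOP) by impeding the outflow of aqueous humor. Eyes with microbeads were divided by the size of their IOP increase into Mild IOP and Moderate IOP, and RGCs of all 3 groups were collected after 2 weeks. The sample labels give an age of 8 weeks. The younger age given in the design text of the series is the paper's age at injection, 2 weeks before collection. Cells were obtained by immunopanning, in which unwanted cells are removed on antibody-coated plates and RGCs are then captured on Thy1.2, a surface protein. The RNA of each group was pooled, with fewer retinas in the Moderate IOP pool, and every pool was then divided into 3 libraries (technical replicates), so p-values measure the spread between libraries of a pool and not between animals. Levels are FPKM, fragments per kilobase of transcript relative to all mapped fragments, scaled between libraries by factors from 0.983 to 1.06. The depth derived from the confidence intervals of the FPKM was 4870000 to 8550000 fragments per library, with 14182 to 14914 genes above 0.

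Meg3, Rian and Mirg are maternally expressed RNAs of the imprinted Dlk1-Dio3 region, and Rian and Mirg host small nucleolar RNAs and microRNAs. Malat1 gathers in nuclear speckles, where splicing factors are stored, and Neat1 is the scaffold of paraspeckles, nuclear bodies that retain RNA and proteins. Miat binds splicing factors in neurons. Gas5 carries small nucleolar RNAs in its introns, and its spliced product is degraded by nonsense-mediated decay. Snhg11 is a host gene that is prominent in neurons.

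The lncRNAs differ in how their RNA ends and in short elements within it, and the sequences that show these features are printed here because cDNA was primed with oligo-dT, which anneals to stretches of A. All positions are in build mm10 (GRCm38), and transcripts are those of GENCODE mouse release M21. Malat1 lies on the minus strand at chr19:5795690-5802671. Its mature end is cut by RNase P and is not polyadenylated but closes in an A-rich tract encoded in the genome, ahead of a small tRNA-like RNA. The longest A run of the transcript Malat1-201, in capitals, had 12 bases and lay at bases within 6634 to 6725 of 6983, chr19:5795948-5796039.
Malat1-201: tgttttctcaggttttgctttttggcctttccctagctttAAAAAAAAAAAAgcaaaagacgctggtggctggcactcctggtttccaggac
An A run of at least 12 bases was found in a transcript of 3929 of 55341 annotated genes (7.10%). Annotated transcripts of Meg3 and Rian held longer runs than Malat1, of up to 16 and 15 bases.

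Neat1 has a short polyadenylated isoform and a long isoform that ends in an A-rich tract like that of Malat1. The deposited Neat1 locus, chr19:5842302-5845478 on the minus strand, covers 3177 bases. The short transcript Neat1-202 has 3004 bases, and the long transcript Neat1-201 has 20771. The last 80 bases of both are shown, with the polyadenylation hexamer AATAAA in capitals. It is present in the end of the short isoform, chr19:5842307-5842386, and absent from the end of the long one, chr19:5824708-5824787.
Neat1-202: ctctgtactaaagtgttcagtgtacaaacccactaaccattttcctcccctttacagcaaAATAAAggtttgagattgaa
Neat1-201: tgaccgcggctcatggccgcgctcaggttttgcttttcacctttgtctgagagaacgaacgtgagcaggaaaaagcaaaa
The Neat1 values below were therefore assigned by the authors to the region of the short isoform. The long isoform also covers that region, so the values do not separate the isoforms.

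Miat, on the minus strand at chr5:112213228-112228948, holds copies of TACTAAC, the sequence that splicing factor SF1 recognizes at intron branch points. The transcript Miat-205 had 6 copies on its own strand, and only 4 of 55341 annotated genes had a transcript with at least 5 copies, the others being Gfap, Slc8a1 and AC154442.1. They fell into blocks of 3 copies each, in capitals, at chr5:112217309-112217460 and chr5:112216752-112216812.
Miat block 1: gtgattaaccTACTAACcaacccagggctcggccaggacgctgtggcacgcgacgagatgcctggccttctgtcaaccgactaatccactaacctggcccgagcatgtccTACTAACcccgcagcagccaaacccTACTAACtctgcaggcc
Miat block 2: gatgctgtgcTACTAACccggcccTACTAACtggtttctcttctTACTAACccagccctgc

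Promoter sequences from RefSeq (GRCm38.p6), which run from 250 bases before to 50 bases after a start site, matched 7 of the 8 lncRNAs with 9 promoters. The motif TGACGTCA, bound by CREB and related factors and searched on both strands, was present in 2 of the 9, one each of Meg3 and Gas5, and in 1.79% of all 32851 promoters. The Meg3 promoter at chr12:109540746-109541045, plus strand, is shown because Meg3 is the lncRNA whose level passed the test below. It held TGACGTCA at -57 and, at -29 and -25, TATAAA on opposite strands overlapping each other (both motifs in capitals), and 13.6% of all promoters held TATAAA. The match in Gas5 lay at -46.
Meg3 promoter: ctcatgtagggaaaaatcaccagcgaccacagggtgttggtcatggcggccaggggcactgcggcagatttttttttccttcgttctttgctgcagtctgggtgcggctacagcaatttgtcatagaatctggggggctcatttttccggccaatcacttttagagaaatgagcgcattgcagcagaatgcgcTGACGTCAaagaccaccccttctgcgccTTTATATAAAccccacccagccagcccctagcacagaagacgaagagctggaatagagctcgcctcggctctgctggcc

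Mature microRNAs listed in RefSeq lay within the loci of 3 of the lncRNAs. Meg3 held 3, Rian 6 and Mirg 19, from 15 microRNA genes. Their 28 sequences had 27 different seeds, the bases 2 to 8 that pair with targets, and the single pair with a shared seed, in capitals, came from Mirg at chr12:109735669-109735692 and chr12:109739132-109739152.
mmu-miR-453: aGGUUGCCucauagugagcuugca
mmu-miR-496a-5p: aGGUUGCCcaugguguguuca

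Malat1 was the most abundant of the 8. It averaged 748 scaled FPKM over the 9 libraries and ranked 78 of the 13043 genes tested. Snhg11 averaged 134 and ranked 781, Meg3 averaged 51.5 and ranked 1941, and Gas5 averaged 10.9 and ranked 5765. These 4 stood in the same order in all 9 libraries, with no overlap between the ranges of neighbors. Rian (mean 1.85), Miat (1.47), Mirg (0.856) and Neat1 (0.636) followed, and the ranges of neighbors among these 4 overlapped. The members' sum was 0.118% to 0.227% of all FPKM of a library, and Malat1 made up 72.7% to 84.2% of that sum.

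The number of fragments behind a value differed widely between the lncRNAs. Derived fragments ranged from 24660 to 57240 for Malat1, from 3981 to 7335 for Snhg11, from 503 to 1000 for Meg3 and from 107 to 268 for Gas5. Miat rested on 36.1 to 216 fragments and Rian on 6 to 86.0. Mirg rested on 0.489 to 16.6 and Neat1 on 0 to 28.

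**Figure D1:**
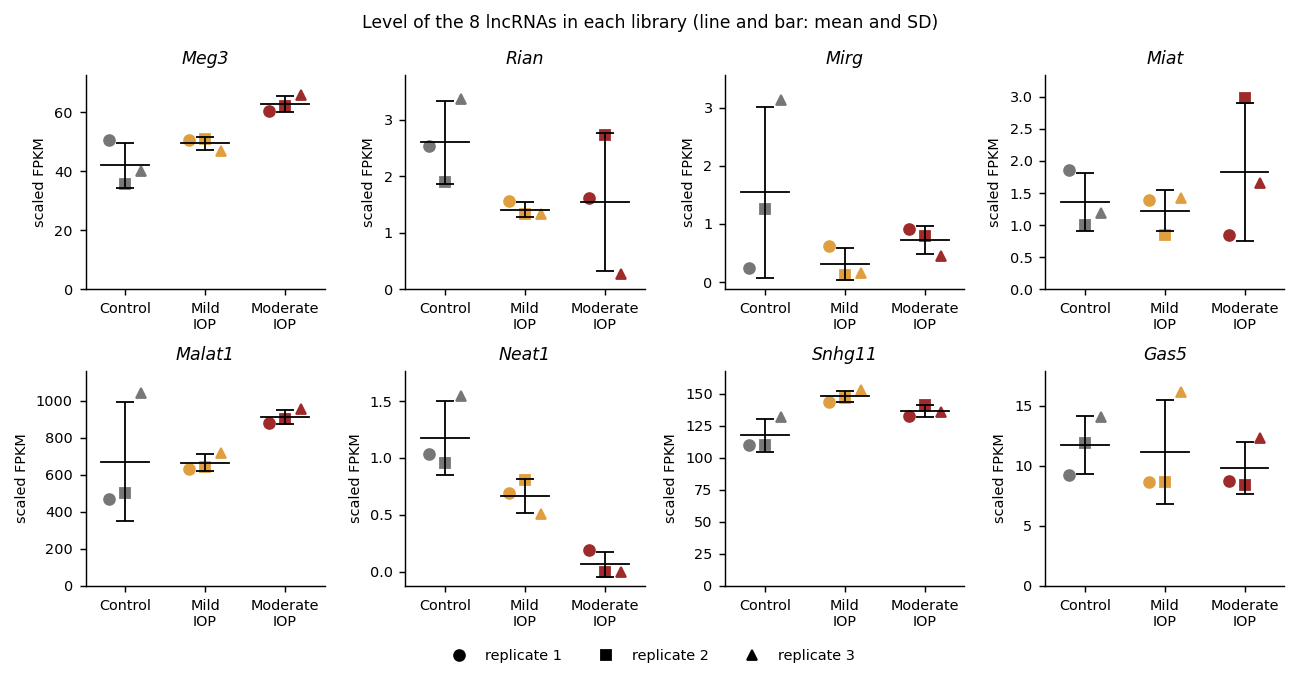
Scaled FPKM (y axis, linear, a scale per panel) of each lncRNA in the 9 libraries of the Control, Mild IOP and Moderate IOP pools (x axis). Symbols mark replicates 1 to 3, and the line and bar give the mean and SD. Meg3 is highest and Neat1 lowest in the 3 Moderate IOP libraries, and Control replicate 3 of Malat1 stands at 1040 beside 468 and 501.

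The first comparison asked how the lncRNAs differed between Moderate IOP and Control. Meg3 rose and was the only 1 of the 8 that passed the test (FDR below 0.1), where 240 of all 13043 genes (1.84%) passed. Meg3, at chr12:109540996-109571729 on the plus strand, is an imprinted RNA of neurons and pituitary that is studied as a growth suppressor. Its scaled FPKM was 50.5, 35.6 and 40.02 in Control, 50.8, 51.0 and 47.0 in Mild IOP, and 60.5, 62.0 and 65.9 in Moderate IOP. All 3 Moderate IOP libraries lay above all other libraries, while the Mild IOP libraries lay within or just above the upper end of Control. The means of Control, Mild IOP and Moderate IOP were 42.1 ± 7.64, 49.6 ± 2.23 and 62.8 ± 2.77 (SD, n = 3 libraries each).

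The difference of Meg3 between Moderate IOP and Control on the scale of log2(scaled FPKM + 1) was 0.58 (SE 0.14, 95% interval 0.27 to 0.89, limma adjusted p = 0.0993). The ratio of the means was 1.49, under the 1.5-fold criterion that the study set for DEGs (differentially expressed genes). The call was kept in 5 of 21 alternative settings, over which the difference ranged from 0.45 to 0.72 and the adjusted p from 0.0820 to 0.248. It was lost on leaving out any 1 library other than Control replicate 1, and the adjusted p was highest without Control replicate 2, where the difference was 0.47. Mild IOP differed from Control by 0.25 (SE 0.14, adjusted p = 0.626), and Moderate IOP from Mild IOP by 0.33 (SE 0.14, 95% interval 0.02 to 0.65, adjusted p = 0.201). With scaling to equal sums, which moved the median of all genes to -0.21, the last difference was 0.10 (adjusted p = 0.733).

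Some RGC markers also rose in Moderate IOP, where Meg3 was highest. Of 12 markers tested, 3 rose in Moderate IOP against Control, namely Sncg (difference 0.61), Nefl (0.65) and Stmn2 (0.64), and 8 rose against Mild IOP, led by Rbpms (1.26), Sncg (1.13), Thy1 (1.05) and Pou4f1 (0.92). Rbpms and Pou4f1 define RGCs, and Nefl encodes a neurofilament of their axons. Their summed level was 1745 to 1872 in Control, 1311 to 1635 in Mild IOP and 2727 to 2932 in Moderate IOP, and none of the 12 averaged under 1 FPKM. In the sum, Mild IOP lay below Control, which Meg3 did not. Sncg had the highest mean of the 12 markers in every group, so the sum is weighted toward it. Its mean was 641 FPKM for Mild IOP, beside 911 for Control (difference -0.52, limma adjusted p = 0.198). No RGC marker passed the test in that comparison. In Mild IOP against Control, 2 of the 12 differed upward, and their median was -0.17. In Moderate IOP against Control, 11 of the 12 differed upward, and the exception was Pou4f2 (-0.10). In pooled RNA, fewer cells of a type and less RNA per cell cannot be told apart, and the part of the markers in the level of Meg3 was not tested.

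The other RNAs of the same imprinted region did not pass the test. Rian (chr12:109603945-109661711, plus strand) hosts small nucleolar RNAs in tandem. It was at 2.53, 1.91 and 3.37 scaled FPKM in Control, 1.56, 1.33 and 1.33 in Mild IOP, and 1.63, 2.73 and 0.281 in Moderate IOP. All Mild IOP libraries lay below all Control libraries, whereas the Moderate IOP libraries ranged from the lowest value of all to a level within Control. The difference from Control was -0.56 (SE 0.37, adjusted p = 0.667) in Mild IOP and -0.61 (SE 0.37, adjusted p = 0.464) in Moderate IOP. The latter was -0.18 without Moderate IOP replicate 3 and -0.96 without Moderate IOP replicate 2 (adjusted p = 0.819 and 0.295), and -1.10 with a pseudocount of 0.1 and -0.23 with 5.

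Mirg (chr12:109734981-109749457, plus strand) is the host of a microRNA cluster. It was at 0.242, 1.26 and 3.14 scaled FPKM in Control, 0.622, 0.127 and 0.163 in Mild IOP, and 0.908, 0.797 and 0.450 in Moderate IOP. The Control libraries alone spread from near the lowest to the highest value of the 9. The difference from Control was -0.82 (SE 0.41, adjusted p = 0.550) in Mild IOP and -0.41 (SE 0.41, adjusted p = 0.681) in Moderate IOP, the latter turning to 0.03 without Control replicate 3.

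The ratio of Meg3 to Rian was 19.98, 18.7 and 11.9 in the Control libraries, 32.5, 38.4 and 35.3 in Mild IOP, and 37.2, 22.7 and 234 in Moderate IOP. Every library with microbeads had a higher ratio of Meg3 to Rian than every Control library. The value of 234 came from Moderate IOP replicate 3, where Rian rested on 6 derived fragments. The ratio of Meg3 to Mirg did overlap between the groups. It was 209, 28.4 and 12.7 in Control, 81.6, 403 and 289 in Mild IOP, and 66.7, 77.85 and 146 in Moderate IOP. Levels are per length of transcript, and neither ratio was tested.

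Between the start of Dlk1 and the end of Dio3, chr12:109452823-110281097, the files listed 76 symbols, 60 of them microRNAs. Only Meg3, Rian and Mirg were above 0 in all 9 libraries, 4 others (Dlk1, Rtl1, 6430411K18Rik and Dio3os) were above 0 in 1 to 8 libraries, and 69 were listed at 0 in every library. The 69 included every symbol within the loci of Meg3 (2), Rian (10) and Mirg (10), which are microRNAs and small RNAs without poly(A) tails. Dlk1, Rtl1 and Dio3, the listed coding genes within the region, were under the level required for testing. Of 6 coding genes in its flanks that were tested, 0 passed the limma test in any comparison, and 1, 1 and 0 had an unadjusted p below 0.05. The most abundant were Wars, a tRNA synthetase, at 72.7 ± 6.93 FPKM in Control and 69.6 ± 4.07 in Moderate IOP, and Ppp2r5c, a phosphatase subunit, at 22.0 ± 1.45 and 19.3 ± 3.496 (SD, n = 3 each).

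Of the nuclear body RNAs, Malat1 was higher and Neat1 was lower in all Moderate IOP libraries than in all Mild IOP libraries, and neither passed the adjusted test. Malat1 was at 468, 501 and 1040 scaled FPKM in Control, 632, 642 and 716 in Mild IOP, and 879, 902 and 954 in Moderate IOP. Control replicate 3 was the highest of the 9 libraries, and the other Control libraries were the lowest. The means in that order were 669.5 ± 321, 663.5 ± 45.9 and 912 ± 38.6 (SD, n = 3).

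Malat1 differed between Moderate IOP and Control by 0.54 (SE 0.24, 95% interval 0.01 to 1.08, adjusted p = 0.320), between Mild IOP and Control by 0.08 (SE 0.24, adjusted p = 0.944) and between Moderate IOP and Mild IOP by 0.46 (SE 0.24, 95% interval -0.07 to 0.99, adjusted p = 0.303). None of these passed with all 9 libraries, and both differences of Moderate IOP passed without Control replicate 3. Without Control replicate 3 the difference between Moderate IOP and Control was 0.91 (adjusted p = 0.00950), and that between Moderate IOP and Mild IOP was 0.46 (adjusted p = 0.0279). The latter compares no Control library, but all libraries fitted share 1 estimate of the spread. It also passed when only the compared groups were fitted. Control replicate 3 was the highest Control library for 6 of the 8 lncRNAs (Rian, Mirg, Malat1, Neat1, Snhg11 and Gas5) and for 35.2% of all genes tested. Its derived depth of 4930000 fragments was the lowest of Control, and the part of depth in the level of Malat1 was not tested.

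Neat1 was at 1.03, 0.950 and 1.54 scaled FPKM in Control and at 0.695, 0.801 and 0.507 in Mild IOP. In Moderate IOP it was at 0.191 in replicate 1, from 3 derived fragments, and listed at 0 in replicates 2 and 3. The groups did not overlap, with every Control library above every Mild IOP library and every Mild IOP library above every Moderate IOP library. The difference from Control was -0.38 (SE 0.27, adjusted p = 0.709) in Mild IOP and -1.03 (SE 0.27, 95% interval -1.62 to -0.43, adjusted p = 0.118) in Moderate IOP, and Moderate IOP differed from Mild IOP by -0.65 (SE 0.27, adjusted p = 0.192). Since the group held zeros, the size of the difference followed the pseudocount, at -3.13 with a pseudocount of 0.1 and -0.29 with 5 for Moderate IOP against Control. Neat1 passed against Control when genes of any level were tested (adjusted p = 0.0355) and when the variance was not fitted as a trend (0.0454).

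The genes of proteins that bind these RNAs were counted as lists. Of 15 paraspeckle proteins, 1 fell in Moderate IOP against Control, namely Ewsr1, an RNA-binding protein, from 184 ± 3.81 to 124 ± 4.93 FPKM (difference -0.56, SE 0.11, adjusted p = 0.0443). Against Mild IOP, Ewsr1 (-0.60, adjusted p = 0.0134) and Nono, a core paraspeckle protein (-0.33, adjusted p = 0.0981), fell and Hnrnpr rose (0.74, adjusted p = 0.0684), and the median of the 15 was -0.19 beside -0.02 over all genes. In Mild IOP against Control 0 of the 15 passed in limma, and 0 had an unadjusted p below 0.05. Hnrnpk, the most abundant, was at 493 ± 11.4 FPKM in Control and differed in Moderate IOP by -0.07. Of 17 speckle and Miat-binding splicing proteins, 0 passed in any comparison, with 0, 3 and 3 at an unadjusted p below 0.05. Srsf5 and Srsf3, the most abundant, differed between Moderate IOP and Control by 0.03 and 0.28.

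Miat was at 1.86, 1.01 and 1.19 scaled FPKM in Control, 1.40, 0.856 and 1.42 in Mild IOP, and 0.854, 2.99 and 1.65 in Moderate IOP. The 3 groups overlapped, and the Moderate IOP libraries held both the lowest and the highest value. The difference from Control was -0.08 (SE 0.32, 95% interval -0.79 to 0.64) in Mild IOP and 0.21 (SE 0.32, 95% interval -0.50 to 0.92) in Moderate IOP, with adjusted p of 0.963 and 0.798.

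**Figure D2:**
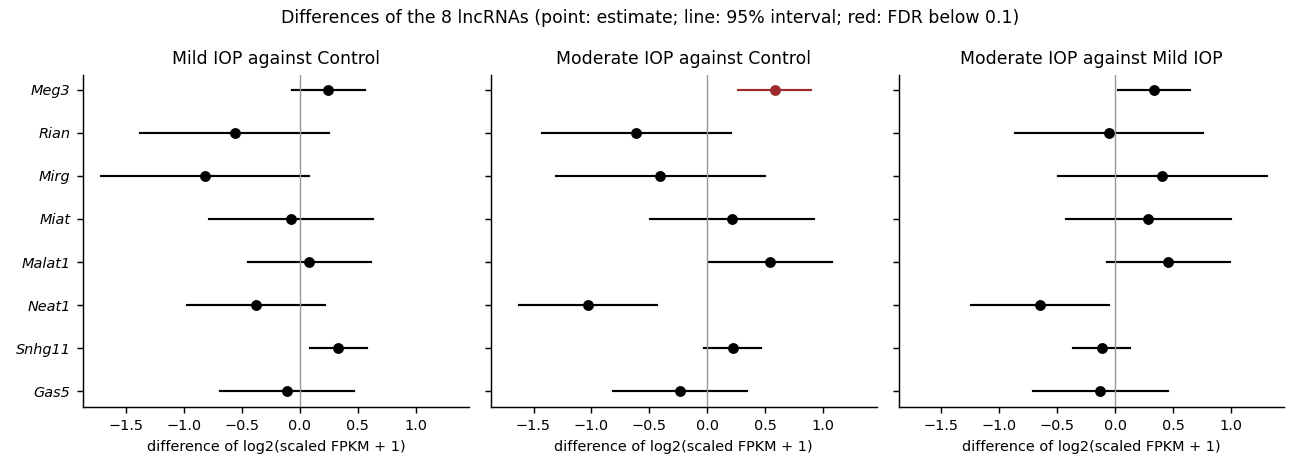
Differences on the scale of log2(scaled FPKM + 1) (x axis) of the 8 lncRNAs (y axis) in the 3 comparisons. Points are limma estimates, lines are 95% intervals, and red marks an FDR below 0.1, which is Meg3 in Moderate IOP against Control (0.58).

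The second comparison, Mild IOP against Control, gave 0 of the 8 lncRNAs past the limma test at an FDR below 0.1, where 52 of all genes (0.399%) passed. At an unadjusted p below 0.05 there was 1 lncRNA, Snhg11, beside 10.2% of all genes. Without overlap between the groups there were 3, Rian and Neat1 lower and Snhg11 higher, beside 17.1% of all genes. Snhg11, at chr2:158375638-158386145 on the plus strand, is annotated as protein coding in GENCODE and named as a host gene of small nucleolar RNAs. It was at 110.3, 110 and 132 scaled FPKM in Control, 144, 147 and 153 in Mild IOP, and 132.3, 141 and 136 in Moderate IOP. After scaling, all libraries with microbeads lay above all Control libraries, and all Mild IOP libraries above all Moderate IOP libraries. Control replicate 3 and Moderate IOP replicate 1 stood closest, at 132 and 132.3 scaled FPKM. As deposited they stood at 132.6 and 130.2 FPKM, so Moderate IOP and Control overlapped before scaling. The means were 117 ± 12.6, 148 ± 4.65 and 136 ± 4.45 (SD, n = 3).

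Snhg11 differed between Mild IOP and Control by 0.33 (SE 0.11, 95% interval 0.09 to 0.58, adjusted p = 0.296) and between Moderate IOP and Control by 0.22 (SE 0.11, 95% interval -0.03 to 0.46, adjusted p = 0.381). Moderate IOP and Mild IOP differed by -0.12 (SE 0.11, 95% interval -0.36 to 0.13, adjusted p = 0.595). Snhg11 was the lncRNA with the smallest spread between libraries of a group, 0.09 (SD on the log2 scale, estimated over all 3 groups). Of genes of like level, 8.82% had a smaller one.

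Gas5 (chr1:161035166-161038537, plus strand) was at 9.24, 11.9 and 14.04 scaled FPKM in Control, 8.62, 8.65 and 16.1 in Mild IOP, and 8.70, 8.42 and 12.3 in Moderate IOP. The groups overlapped, with replicate 3 the highest in each. The difference from Control was -0.11 (SE 0.26, 95% interval -0.69 to 0.47, adjusted p = 0.930) in Mild IOP and -0.23 (SE 0.26, 95% interval -0.82 to 0.35, adjusted p = 0.721) in Moderate IOP. Of 10 nonsense-mediated decay factors, 0 passed in limma in any comparison, with 0, 2 and 1 at an unadjusted p below 0.05. The most abundant were Upf3a, at 22.8 ± 3.33 FPKM in Control and 25.3 ± 8.54 in Moderate IOP, and Smg9, at 22.1 ± 3.39 and 19.1 ± 3.36 (SD, n = 3 each).

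Moderate IOP against Control had 3 lncRNAs at an unadjusted p below 0.05 (Meg3 and Malat1 higher, Neat1 lower) beside 15.3% of all genes, and 3 without overlap (Meg3 and Snhg11 higher, Neat1 lower) beside 19.4%. Of these, Snhg11 did overlap before scaling. The third comparison, Moderate IOP against Mild IOP, had 0 past the limma test at an FDR below 0.1, while 10.2% of all genes passed. It had 2 at an unadjusted p below 0.05, Meg3 higher and Neat1 lower, beside 21.8% of all genes. It had 4 without overlap, Meg3 and Malat1 higher and Neat1 and Snhg11 lower, beside 27.5%. The 3 comparisons share libraries. The median difference of the 8 was -0.09 in Mild IOP against Control, -0.01 in Moderate IOP against Control and 0.12 in Moderate IOP against Mild IOP, beside 0.01, 0.00 and -0.02 over all genes.

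Of 11 other host genes of small nucleolar RNAs tested, Snhg1 and Snhg6 rose in Moderate IOP against Mild IOP, from 16.5 ± 6.48 to 37.6 ± 4.08 FPKM (difference 1.197, SE 0.26, adjusted p = 0.0232) and from 15.7 ± 6.29 to 57.9 ± 38.7 FPKM (difference 1.69, SE 0.47, adjusted p = 0.0598; SD, n = 3 each). In that comparison 10 of the 11 differed upward, and their median was 0.64 beside -0.02 over all genes. None of the 11 passed in limma in the comparisons with Control, where 3 (Mild IOP) and 1 (Moderate IOP) had an unadjusted p below 0.05. Against Control, the most abundant host, Snhg3, differed by 0.05 in Mild IOP and 0.82 in Moderate IOP (adjusted p = 0.974 and 0.218). Snhg1 differed by -1.08 and 0.12 (adjusted p = 0.163 and 0.872), and Snhg6 by -1.26 and 0.43 (adjusted p = 0.364 and 0.706).

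Of 16 other brain and nuclear lncRNAs, 1 fell in Moderate IOP against Mild IOP, 2900097C17Rik, from 237 ± 41.9 to 139 ± 7.12 FPKM (difference -0.76, SE 0.16, adjusted p = 0.0207). The comparisons with Control gave 0 in limma, with 0 (Mild IOP) and 2 (Moderate IOP) at an unadjusted p below 0.05. It was at 191 ± 35.4 in Control, and the next most abundant, 6330403K07Rik, differed from Control by -0.11 in Mild IOP and -0.26 in Moderate IOP (adjusted p = 0.879 and 0.471).

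**Figure D3:**
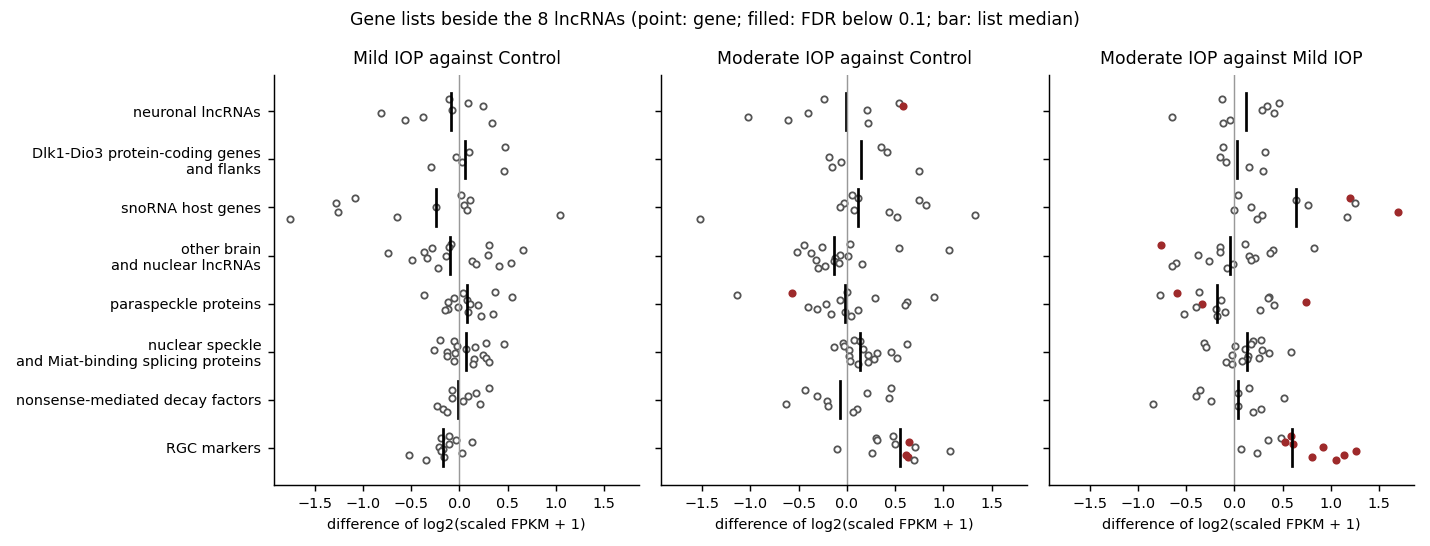
Differences on the scale of log2(scaled FPKM + 1) (x axis) of the genes of 8 lists (y axis) in the 3 comparisons. Points are genes, filled red at an FDR below 0.1, and bars are list medians. In Moderate IOP against Mild IOP the snoRNA host genes (median 0.64) and RGC markers (0.60) stand to the right of 0, while the neuronal lncRNAs (0.12) stand near it.

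The lncRNAs differed in how closely libraries of 1 pool repeated each other. The SD on the log2 scale was estimated once per gene, over the libraries of all 3 pools around their group means. It was 0.37 for Malat1, and 94.6% of the 93 genes of like level had a smaller one. Most of the spread of Malat1 came from Control, at 468, 501 and 1040 scaled FPKM (SD 321). Its SD in scaled FPKM was 45.9 for Mild IOP and 38.6 for Moderate IOP, so 0.37 does not describe those pools. The log2 SD was 0.15 for Meg3 and 0.16 for Neat1, with 27.2% and 2.02% of genes of like level below them. Neat1 rested on 0 to 28 derived fragments and was listed at 0 in Moderate IOP replicates 2 and 3. Adding 1 before the log narrows differences between values near 0, so the SD of Neat1 does not show close repeats. The SD was 0.49 for Rian, 0.54 for Mirg, 0.38 for Miat and 0.36 for Gas5, with 63.9%, 64.6%, 39.1% and 70.95% below.

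**Figure D4:**
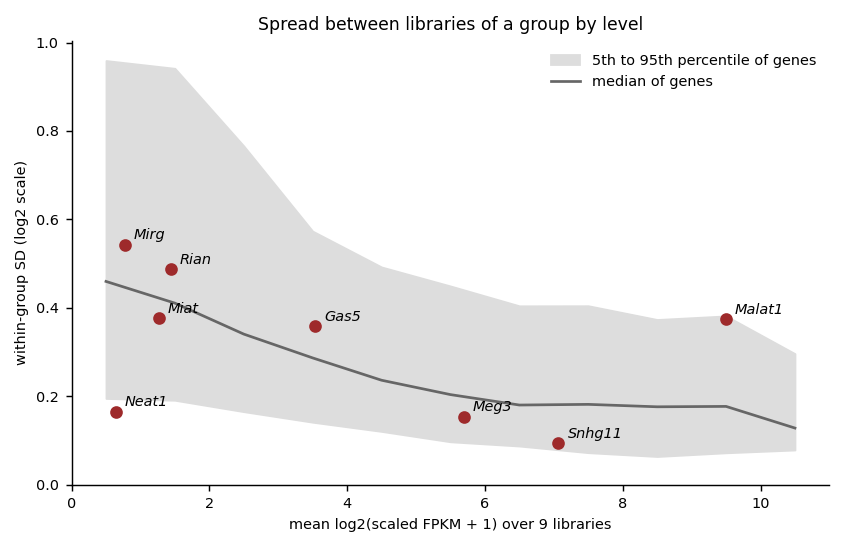
Within-group SD on the log2 scale (y axis) against the mean of log2(scaled FPKM + 1) over 9 libraries (x axis). Red points are the 8 lncRNAs, each with 1 SD estimated over all 3 groups. The line is the median and the band the 5th to 95th percentile of the genes tested at that level. Malat1 (0.37) lies at the upper edge of the band. Neat1 (0.16), with a mean of only 0.636 scaled FPKM, lies below its lower edge.

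As a description over the 9 libraries, which share pools, the gene whose pattern was most like that of Meg3 was Rnf126, a ubiquitin ligase (Pearson's r = 0.96), followed by Fra10ac1 and Rpph1 (r = 0.95 each), among 8179 genes with a mean of at least 5 FPKM. For Malat1 it was Ptges3, a cochaperone of Hsp90 (r = 0.99), followed by Bcap29 and Gm14295. For Neat1 it was Psmd2, a proteasome subunit (r = 0.95), followed by Svop and Narfl, and for Snhg11 it was Sh3bgrl2 (r = 0.94), followed by Spcs3 and Jam2. The nearest genes of Rian were Acd, Ddah1 and Tmem219, of Mirg Pdap1, Kcnmb4 and Cstf3, of Miat Prkaca, Xpc and Ube2r2, and of Gas5 Ndnl2, Slc7a6os and Vmp1. Among the lncRNAs themselves, Meg3 and Neat1 ran most opposed (r = -0.84), and Meg3 with Rian and Mirg had r = -0.46 and -0.44.

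Markers of other cells also differed between the pools. Summed rod and cone markers were 462 to 544 FPKM in Control, 302 to 339 in Mild IOP and 297 to 347 in Moderate IOP, and summed lens markers were 307 to 371, 1.77 to 3.74 and 0.602 to 5.71. Amacrine cell markers summed to 1533 to 1617, 1565 to 1659 and 1255 to 1327. Of the 8 amacrine markers tested, Gad2 (difference -0.70) and Slc6a9, a glycine transporter (-1.48), fell in Moderate IOP against Control, 3 differed upward without passing the test, and the median of the 8 was -0.13. Against Mild IOP, Gad1 (-0.48), Gad2 (-0.83) and Slc6a9 (-1.88) fell, with a median of -0.06. Muller glia and astrocyte markers summed to 591 to 619, 604 to 656 and 597 to 640, of which Dkk3 made up the most, with means of 485 in Control and 423 in Moderate IOP. Of the 7 tested, Rlbp1 (1.43) and Apoe (0.68) rose in Moderate IOP against Control, with a list median of 0.60, and Glul (0.96) and Apoe (0.63) rose against Mild IOP, with a list median of 0.19. Bipolar cell markers summed to 72.0 to 161, 91.4 to 154 and 137 to 187, microglia and macrophage markers to 39.6 to 45.9, 31.5 to 50.2 and 48.6 to 56.7, and endothelial and pericyte markers to 2.58 to 5.46, 7.04 to 12.2 and 6.93 to 10.6. Cldn5, which marks endothelial cells, was listed at 0 in all libraries. The part of these cells in the lncRNA levels was not tested.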

How the data were processed

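RGC RNA of each group was pooled, split into 3 technical replicates, reverse transcribed with an oligo-dT primer and sequenced from both ends. The authors estimated the deposited FPKM for each library separately with cufflinks on mm10. Their paper names bowtie2 as the aligner and the submitters' processing notes name TopHat2. FPKM were summed per gene symbol, and fragments behind a value were derived from the deposited confidence intervals. The derived depths were 4870000 to 8550000 fragments per library, and derived fragments cover counting error only.

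Scaling used median-of-ratios factors, and log2(scaled FPKM + 1) was fitted as group means over all 9 libraries with limma 3.58.1 in R 4.3.3, with a variance trend and Benjamini-Hochberg adjustment over the 13043 genes with a mean of at least 0.5 and no failed estimate. Genes of like level lay within 0.5 on the log2 scale. The named genes were all 8 lncRNAs; list genes past an FDR of 0.1, at most 4 per list and comparison, or else the 2 most abundant; 3 genes of like pattern per lncRNA; and symbols overlapping them or lying between Dlk1 and Dio3. The members and lists were chosen with earlier results of these data known. Replicate numbers in the labels mark splits of a pool: deviations of same-numbered libraries correlated between -0.01 and 0.04, so they were not treated as pairs. Alternatives varied the scaling, pseudocount, filter, failed estimates, locus summing, variance model, replicate block and libraries. Reads were not realigned, and no sequencing batch was named in the sources used here. One sequence is not reported here.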

Additional observations from a re-analysis of the deposited data

How the results depend on the processing

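Of 492 differences of single lncRNAs recomputed under 21 alternatives, 456 kept their direction and their side of the threshold, 16 lost the call of Meg3, 8 gained a call (Malat1 or Neat1) and 12 changed sign. Mirg rested on at most 16.6 and Neat1 on at most 28 derived fragments in a library. The filter at a mean of 5 gave no value for Rian, Mirg, Miat and Neat1.

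The number of lncRNAs called in Moderate IOP against Control fell from 1 to 0 without library scaling, with upper quartile scaling, with scaling to equal sums, with a pseudocount of 0.1 and with the compared groups only. It was 0 to 1 when each library was left out in turn. Without Control replicate 3 the called lncRNA was Malat1 and not Meg3. Neat1 was called in the same comparison with no filter and with no variance trend. In Moderate IOP against Mild IOP the number was 1 in place of 0 with a pseudocount of 0.1, with no filter and with no variance trend (Neat1, adjusted p = 0.0995, 0.0600 and 0.0791) and with the compared groups only (Malat1, 0.0622), and 0 to 1 with each library left out.

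Over all genes, the 52 called in Mild IOP against Control became 25 with upper quartile scaling, 14 with equal sums, 24 with no filter, 85 with the filter at 5, 15 with no variance trend, 11 with the compared groups only and 15 to 183 with each library left out. The 240 in Moderate IOP against Control became 144 with no variance trend, 134 with the compared groups only and 61 to 287 with each library left out. The 1324 in Moderate IOP against Mild IOP became 839 with no variance trend and 519 to 1399 with each library left out. With scaling to equal sums the median of all genes stood at 0.10, -0.11 and -0.21 in the 3 comparisons. The share of calls that were higher in Moderate IOP was then 22.6% in place of 51.7% against Control and 20.4% in place of 69.3% against Mild IOP. Against Mild IOP it was 52.5% without scaling and 50.3% with upper quartile scaling. Mir1249 held 20.5% of all FPKM in Mild IOP replicate 2 and Mir8104 9.14% in Moderate IOP replicate 3, which a sum includes.

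The replicate block, fitted although the numbers did not pair the libraries, gave 25 genes in Mild IOP against Control, 135 in Moderate IOP against Control and 0 lncRNAs in the latter (Meg3 adjusted p = 0.154).

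The 12 changes of sign fell on 7 differences. With each library left out in turn, Mild IOP against Control ranged from -0.18 to 0.074 for Miat, from -0.12 to 0.45 for Malat1 and from -0.39 to 0.028 for Gas5. Moderate IOP against Control ranged from -0.84 to 0.028 for Mirg and from -0.070 to 0.49 for Miat. Moderate IOP against Mild IOP ranged from -0.39 to 0.38 for Rian and from -0.28 to 0.15 for Gas5, and Rian was 0.0135 with a pseudocount of 5. The cause of these changes was not tested.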
